A study of Homo sapiens with 42 samples.

Results

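The genes described here are 10 members of the NF-kappaB system, chosen by symbol: the 5 transcription factor genes NFKB1, NFKB2, REL, RELA and RELB, and 5 genes that NF-kappaB is known to induce, NFKBIA, NFKBIE, TNFAIP3, BIRC3 and BCL3. All 10 were found among the 50648 gene symbols present in the count tables of 7 human acute lymphoblastic leukaemia cell lines. The 5 lines Nalm6, SUPB15, RS411, REH and 697 are of B-cell precursor type, and the 2 lines CEM and DND41 are of T-cell type. Cells were kept either untreated or with L-asparaginase, an enzyme drug that degrades asparagine and, more slowly, glutamine, at 1 IU/ml for 4 h. With 3 independent experiments per line according to the design text, this gave 42 RNA libraries in 14 groups of 3, all grown in the same glutamine-containing medium with serum. Each line is a single established culture, so the libraries of a line measure the spread within that line and not between leukaemias.

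NF-kappaB proteins act as dimers that are held inactive in the cytoplasm by inhibitors of the IkappaB family until a kinase complex marks the inhibitor for degradation. Among the genes that the freed dimers switch on are their own inhibitors, such as NFKBIA, the ubiquitin-editing enzyme TNFAIP3 (A20) and several of the factor genes, so that the transcripts of these genes serve as a common readout of the pathway. In the canonical arm RELA or REL pairs with the p50 product of NFKB1, and in the alternative arm RELB pairs with the p52 product of NFKB2. In lymphoid cells the pathway is known for its part in activation and survival.

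The promoters of several members carry the decamer to which NF-kappaB dimers bind, the kappaB consensus. Windows of 300 bases, from 250 before to 50 after the annotated start, were taken from RefSeq (build GRCh38.p14), and the consensus was searched for on both strands. A window was on hand for 8 of the 10 members; RELB and NFKBIE had no entry. At least 1 match lay in 6 of the 8 windows and at least 2 in 3 of them, while 10.8% of all 27305 windows held at least 1 match and 1.88% at least 2. The members were chosen as factors and known targets of NF-kappaB, so these shares are a description and not an independent test. The matches are printed below in capitals, with 8 bases of flank in lower case. Each sequence is read 5′ to 3′ on the strand of its gene. A match is a description of the letters, not evidence of a bound site.
NFKB1 (chr4:102501302-102501327, plus strand): acgtcagtGGGAATTTCCagccagga
REL (chr2:60881519-60881545, plus strand): tcagccgcGGGAAATTCCCctcccgcc
NFKBIA (chr14:35404813-35404838, minus strand): actggcttGGAAATTCCCcgagcctg
TNFAIP3 (chr6:137867184-137867221, plus strand): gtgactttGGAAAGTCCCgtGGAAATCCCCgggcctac
BIRC3, first match (chr11:102317277-102317302, plus strand): tgggtcatGGAAATCCCCgagtgggt
BIRC3, second match (chr11:102317341-102317366, plus strand): ttaccgctGGAGTTCCCCtaagtcct
BCL3 (chr19:44748702-44748727, plus strand): ggctgcagGGGAAGTCCCggcgcccg
The first match base lay 49 bases before the start in NFKB1, 47 in REL, 81 in NFKBIA and 67 in TNFAIP3, and the BIRC3 matches lay 199 and 135 bases before it. REL held an overlapping pair on opposite strands, TNFAIP3 held a tandem pair on the strand opposite to its transcript, and the BCL3 match began 2 bases after the start. The windows of NFKB2 and RELA held none. Of a list of 30 other known NF-kappaB target genes, 25 had a window and 11 of those held a match.

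The depth of the libraries ran from 15.07 M (mega counts) to 77.14 M, and its median was 40.28 M. In CEM every treated library (50.81 to 71.52 M) was deeper than every untreated one (22.68 to 31.6 M). Levels are given below as CPM, counts per mega count scaled over all 42 libraries by the TMM method, and are compared between libraries of 1 gene and not between genes, since they are not per length. The summed level of 8 B-lineage markers was at least 1000 CPM in the 5 precursor lines and that of 8 T-lineage markers between 1650 and 2240 CPM in CEM and DND41. DND41 also summed to between 648 and 1060 CPM over the B-lineage markers, with PAX5 and CD22 at 0 in its untreated libraries. In these bulk samples, fewer cells with a transcript and less of it per cell cannot be told apart. Earlier results of these data had marked 5 untreated libraries that stand apart, library A of Nalm6, SUPB15, RS411 and DND41 and library 1 of 697, and 3 treated libraries with transcripts of other lines, SUPB15 C, REH A and RS411 B.

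Those 5 untreated libraries moved members as well. RELB was below the mean of the other 2 untreated libraries in 5 of 5 lines, by a mean of -1.02 on the log2 CPM scale, NFKB2 in 5 of 5 by -0.83 and NFKBIE in 5 of 5 by -0.58. BIRC3, REL and NFKB1 lay above it on average, by 0.46, 0.35 and 0.23. In the same libraries the small nucleolar RNA SNORD3A was lower by a mean of -4.38, TSPO by -2.87, and EIF5B was higher by 1.20. The deviations of the 5 libraries correlated across genes with a median of 0.71. The responses below were also fitted without these 5 libraries, and the difference between the fits with and without them was not tested. Calls that changed without these libraries are given beside the results.

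**Figure D1:**
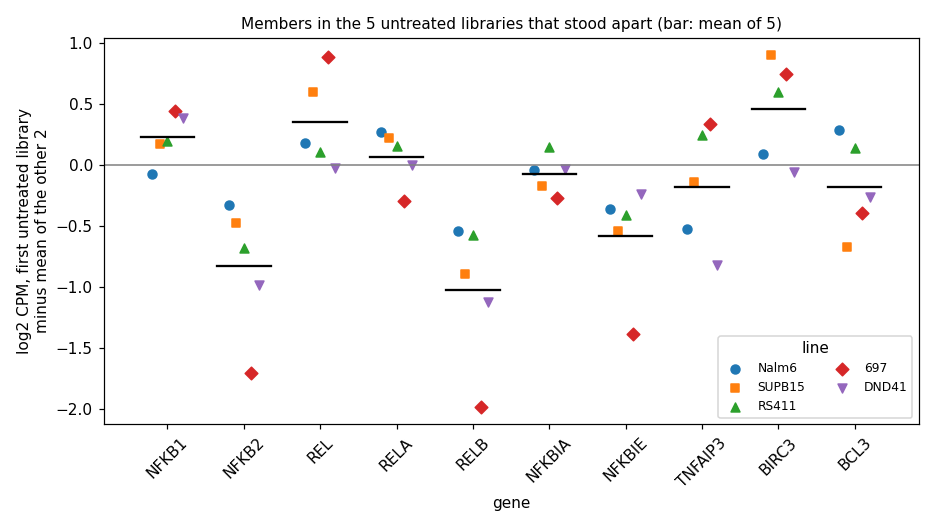
Difference in log2 CPM between the first untreated library and the mean of the other 2 untreated libraries (vertical axis) for each of the 10 genes (horizontal axis), 1 symbol per line and a bar at the mean of 5 lines. RELB, NFKB2 and NFKBIE lie below 0 in 5 of 5 lines, lowest in 697, where RELB is at -1.98.

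Before treatment the lines differed in the level of 8 of the 10 members, beside 81.3% of all 19693 genes tested (edgeR, 6 degrees of freedom over the 21 untreated libraries, called at an adjusted p under 0.05). REL (adjusted p = 0.144) and RELB (0.169) did not pass, and RELA (0.0459) passed narrowly.

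Among the factors, RELA, the main activating subunit of the canonical arm, was the most even: its line means ran from 31.6 CPM in CEM to 41.5 CPM in Nalm6, a ratio of 1.31, and every pair of neighbours in that order overlapped. REL, the activating subunit known from mature B cells, ran from 12.3 CPM in RS411 to 18.8 CPM in Nalm6. RELB, the activating subunit of the alternative arm, ran from 5.06 CPM in DND41 to 10.9 CPM in REH, again with overlap between all neighbours. Without the 5 libraries that stood apart, REL and RELB passed (edgeR adjusted p = 0.00042 and 0.0121) and RELA did not (0.107).

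NFKB1, the precursor of p50, separated the lines into a high and a low set. SUPB15 had 160, 136 and 148 CPM, and 697 had 154, 113 and 113 CPM. The other 5 lines had means from 57.7 CPM (CEM) to 77.5 CPM (Nalm6), and the step between 697 and Nalm6 was the only one without overlap (edgeR adjusted p = 0.0012). NFKB2, the precursor of p52, was highest in REH at 21.8, 16.8 and 21.8 CPM and lowest in 697 at 2.25, 7.31 and 7.49 CPM. The REH libraries did not overlap those of the next line, CEM (11.1 to 12.4 CPM), but that step did not pass the test (adjusted p = 0.0819).

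Among the inhibitors, NFKBIA (IkappaB alpha) was highest in REH (115, 131 and 123 CPM) and SUPB15 (110, 123 and 125 CPM) and lowest in DND41 (42, 45.1 and 40.7 CPM). The steps from CEM to 697 (edgeR adjusted p = 0.0065) and from 697 to DND41 (0.0381) passed. NFKBIE (IkappaB epsilon) formed 2 levels, with REH, RS411 and Nalm6 at means of 17, 16.9 and 11.8 CPM and the other 4 lines between 5.62 and 6.98 CPM. The step from Nalm6 to SUPB15, which divides the levels, passed (adjusted p = 0.0287).

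TNFAIP3, the ubiquitin-editing enzyme that dampens signalling upstream of the IkappaB kinase, spanned a ratio of 33.4 between lines. REH had 196, 157 and 174 CPM, all above every other untreated library. RS411 had 5.86, 5.25 and 4.61 CPM, all below every other line and below the next, DND41 (21.4, 28.8 and 49.5 CPM), with an edgeR adjusted p of 1.32e-08. The remaining 5 lines lay between.

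BIRC3 (cIAP2), a ubiquitin ligase that blocks cell death at TNF receptors, was highest in the T-cell lines. CEM had 24.6, 23.4 and 24.8 CPM and DND41 8, 7.95 and 8.79 CPM, without overlap (edgeR adjusted p = 7.37e-05). REH followed at 3.21, 1.30 and 2.00 CPM, RS411 and Nalm6 near 1 CPM, and SUPB15 at 0.291, 0.162 and 0.11 CPM. In 697 it had 1, 0 and 0 counts, where a count of 0 allows up to 3 counts, at most 0.0986 CPM in these libraries before TMM scaling. That limit covers counting error only. BCL3, a nuclear IkappaB protein that partners p50 and p52, was highest in 2 precursor lines. REH had 9.04, 8.82 and 8.79 CPM and Nalm6 4.52, 4.94 and 2.76 CPM. DND41 had 0, 0 and 1 counts, where a count of 0 allows at most 0.0791 CPM before TMM scaling. The steps from REH to Nalm6 (edgeR adjusted p = 0.00329) and from Nalm6 to SUPB15 (0.00133) passed.

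Taking the mean of CEM and DND41 against the mean of the 5 precursor lines, 5 members differed before treatment, beside 49.0% of all genes. NFKB1 (log2 difference -0.59 ± 0.0958 SE, edgeR adjusted p = 3.1e-05), NFKBIA (-0.69 ± 0.0808, 3.93e-07) and NFKBIE (-0.85 ± 0.169, 0.000269) were lower in the T-cell lines. BIRC3 was higher (1.44e-15) and BCL3 lower (3.36e-09), with no fold given because 1 line of each comparison had next to no reads. Without the 5 libraries that stood apart, RELB (-0.552, 0.0103) and TNFAIP3 (0.276, 0.0309) passed as well. The 2 T-cell lines were not alike, so this compares these lines and not lineages. Between CEM and DND41, 4 members differed before treatment, beside 31.1% of all genes, and all 4 were higher in CEM. TNFAIP3 was 3.07-fold higher in CEM (109, 90.2 and 109 CPM, edgeR adjusted p = 1.01e-05), BIRC3 2.92-fold (7.37e-05) and NFKBIA 1.74-fold (6.43e-05), and BCL3, next to absent from DND41, was the other one (1e-06).

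**Figure D2:**
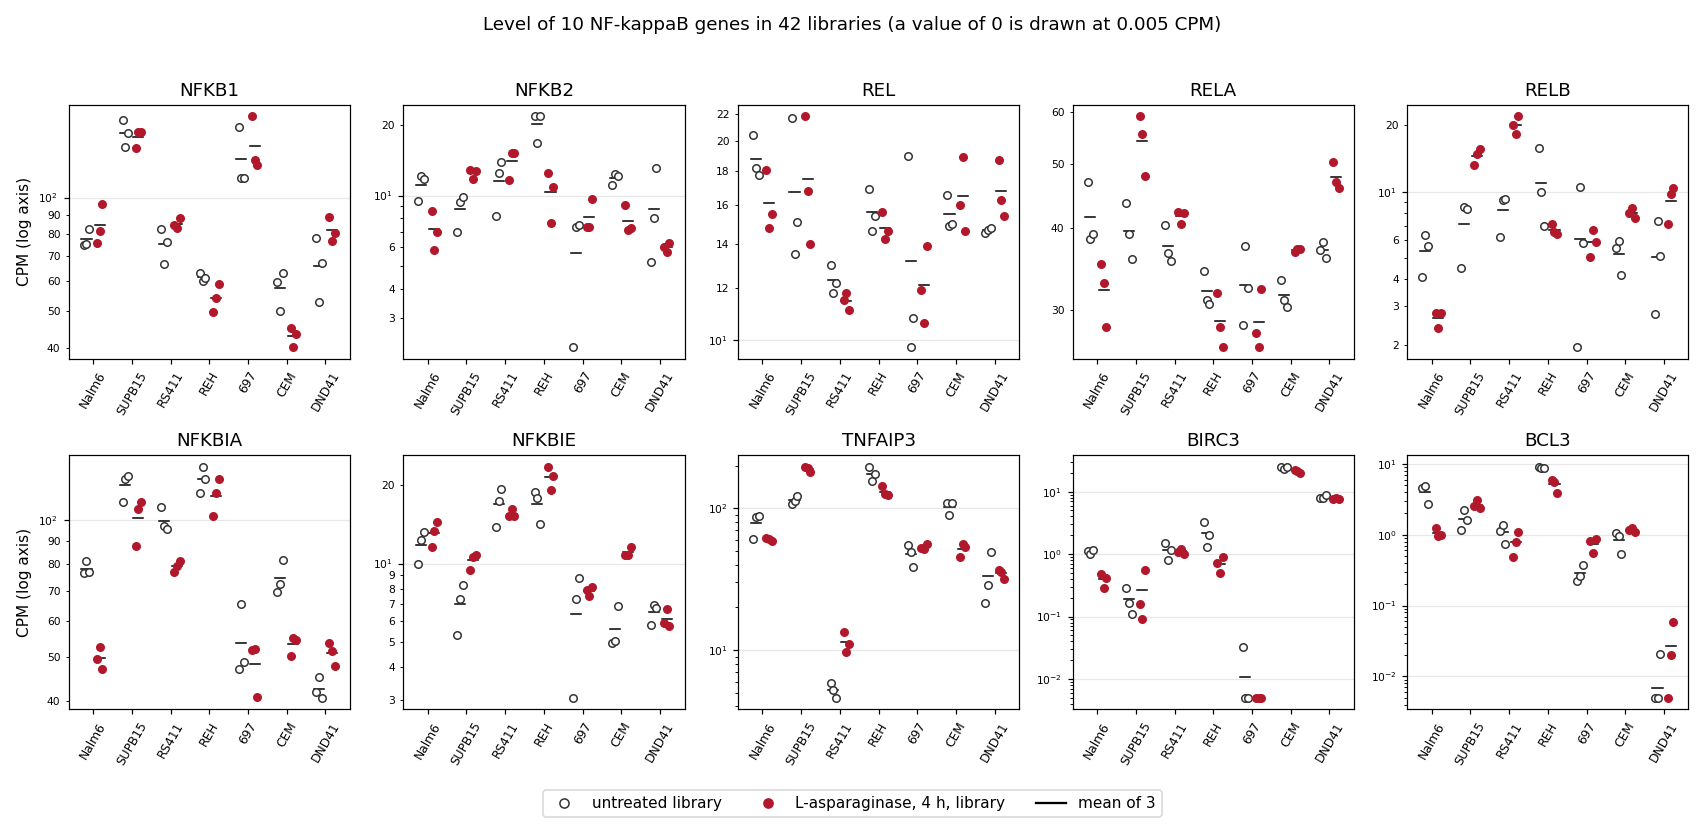
Level of each gene (CPM, log axis) in every library of the 7 lines on the horizontal axis, open for untreated and filled for L-asparaginase at 4 h, with a line at the mean of 3. TNFAIP3 in untreated RS411 (4.61 to 5.86 CPM) lies below all other lines, BIRC3 is highest in CEM and DND41, and NFKBIA in Nalm6 falls without overlap.

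With L-asparaginase, the members moved in different directions in different lines. Of 67 gene-by-line values tested, 22 passed (edgeR adjusted p under 0.05), 9 higher and 13 lower in the treated libraries. In Nalm6, 5 of 10 passed, all lower, beside 21.1% of all genes called (9.14% higher and 11.9% lower). In REH, 4 of 10 passed, all lower, beside 27.2% (13.5% higher, 13.6% lower). In SUPB15, 3 of 9 tested passed, all higher, beside 26.5% (13.1% higher, 13.4% lower), and in RS411, 2 of 10, both higher, beside 13.3% (7.87% higher, 5.41% lower).

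CEM had the most calls, 7 of 10, with 3 higher and 4 lower, beside 37.2% of all genes (19.1% higher, 18.0% lower). DND41 had 1 of 9 tested, higher, beside 27.2% (15.3% higher, 12.0% lower). In 697 none of 9 passed, beside 2.62% of all genes (1.67% higher, 0.954% lower). In 697, 1 member had an unadjusted p under 0.05 in edgeR, BCL3, and DESeq2 also called none, beside 8.65% of all genes. Without untreated library 1 of 697 no member passed either, beside 23.7% of all genes. In the model of all 42 libraries BCL3 passed, beside 19.9%. BIRC3 in SUPB15 and 697 and BCL3 in DND41 had too few reads to be tested.

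**Figure D3:**
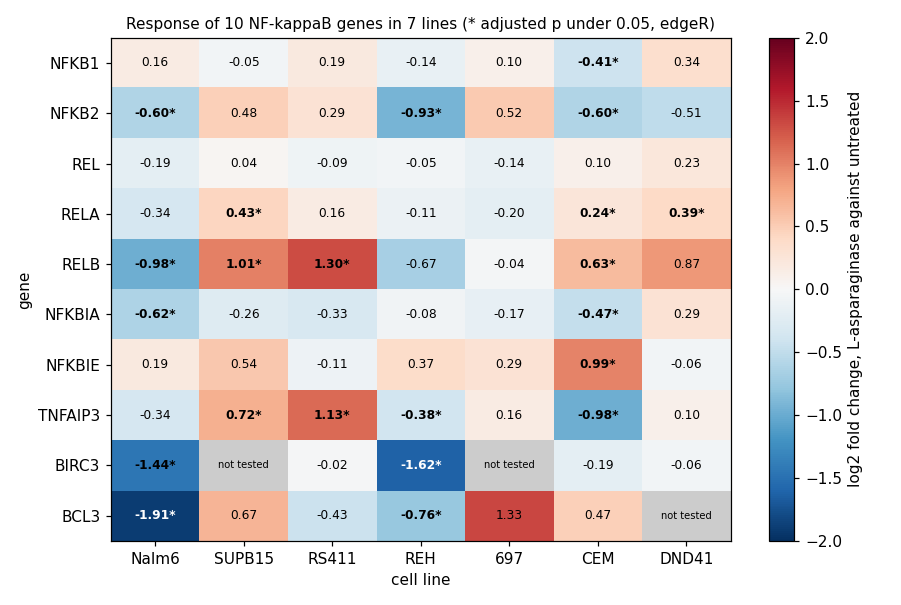
Log2 fold change of treated against untreated libraries for each gene (rows) in each line (columns), by colour and number, with an asterisk at an edgeR adjusted p under 0.05 and grey where not tested. All Nalm6 and REH calls are negative, all SUPB15, RS411 and DND41 calls are positive, and CEM has both.

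Averaged over the 7 lines, 2 of 10 members passed, 1 in each direction, beside 37.0% of all 20983 genes tested (17.6% higher, 19.4% lower). NFKBIA fell by 0.25 on the log2 scale (± 0.0442 SE, edgeR adjusted p = 2.18e-05) and NFKBIE rose by 0.30 (± 0.0788, 0.00234). Without the 5 libraries that stood apart, NFKB2 (-0.35, 5.76e-05) and RELA (0.105, 0.0357) passed too. The mean response of RELB, 0.286 as reported (edgeR adjusted p = 0.0749), was then 0.13 (0.272), and that of NFKBIE was 0.20 (0.00132). The NFKBIE call rested on CEM, without which its mean response was 0.193 (adjusted p = 0.0877). An equal response in all 7 lines was rejected for 8 of 10 members, beside 21.1% of all genes. Only REL (adjusted p = 0.828) and NFKBIE (0.0537) did not pass it, and NFKBIE did without the 5 libraries that stood apart (3.64e-05). NFKB1 passed narrowly (0.0493) and did not once SUPB15 C, REH A and RS411 B were left out (0.121).

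The response of RELB, the alternative-arm factor, had opposite signs in different lines. In RS411 it went from 6.21, 9.13 and 9.30 CPM to 20.1, 18.3 and 22.0 CPM, and in SUPB15 from 4.51, 8.55 and 8.31 CPM to 13.2, 14.8 and 15.7 CPM. In both lines every treated library lay above every untreated one. The rise was 2.46-fold in RS411 (log2 1.30 ± 0.172 SE, edgeR adjusted p = 0.00411) and 2.01-fold in SUPB15 (1.01 ± 0.23, 0.0131).

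In Nalm6, RELB went the other way, from 4.10, 6.37 and 5.65 CPM to 2.81, 2.40 and 2.80 CPM, again with no overlap. It fell 1.97-fold (log2 -0.98 ± 0.203, edgeR adjusted p = 0.00772). CEM showed a smaller rise, from 5.51, 5.93 and 4.18 CPM to 8.01, 8.38 and 7.58 CPM (log2 0.63 ± 0.144, 0.00473). In DND41 the values were 2.78, 7.33 and 5.07 against 7.14, 9.77 and 10.4 CPM, which overlap (log2 0.87 ± 0.305, 0.0587), and with the libraries paired by letter this passed (0.93, 0.00304), while without untreated library A it did not (0.60, 0.0685). In REH, untreated library A stood at 15.8 CPM against 9.93 and 6.96 CPM, and the difference from the treated 6.44 to 7.12 CPM did not pass (log2 -0.67 ± 0.265, 0.0851), but passed when paired by letter (-0.57, 0.0233).

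Without the libraries that stood apart, the RELB calls kept their direction and passed, at log2 1.16 in RS411, 0.82 in SUPB15 and -1.11 in Nalm6. In SUPB15 the call was lost without treated library B (1.00, adjusted p = 0.0532) or C (0.955, 0.0509). The Nalm6 response differed from the mean of the other 6 lines by log2 -1.52 (edgeR adjusted p = 0.0196), and the interaction over the 7 lines had an adjusted p of 0.00122.

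NFKB2, the partner of RELB, passed lower in 3 lines. In REH it went from 21.8, 16.8 and 21.8 CPM to 12.5, 7.63 and 10.9 CPM, a 1.91-fold fall (log2 -0.93 ± 0.195, edgeR adjusted p = 0.00547), and in CEM from 11.1, 12.4 and 12.1 CPM to 9.08, 7.11 and 7.27 CPM (-0.60 ± 0.126, 0.00284). Neither pair of groups overlapped. Nalm6 went from 9.48, 12.1 and 11.8 CPM to 8.62, 5.87 and 7 CPM, without overlap (-0.60 ± 0.177, 0.0341). That call was lost without untreated library B (adjusted p = 0.0949) or C (0.0853) or treated library B (0.144) or C (0.115).

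In SUPB15, every treated NFKB2 value (11.8 to 12.8 CPM) lay above every untreated one (6.96 to 9.90 CPM), but the difference did not pass (log2 0.48 ± 0.169, 0.0638). It passed without untreated library A (0.394, edgeR adjusted p = 0.0295) and with DESeq2 (0.499, 0.0376). In DND41 the values were 5.2, 8.05 and 13.1 CPM against 6.02, 5.71 and 6.30 CPM, which overlap, and passed lower only without library A (-0.763, 0.0234, against -0.51 ± 0.287, 0.212, with it). With one spread for all 42 libraries, the Nalm6 and CEM calls of NFKB2 (adjusted p = 0.146 and 0.157) and of RELB (0.0567 and 0.257) were lost. In CEM, RELB and NFKB2 thus passed in opposite directions, whereas in Nalm6 both were lower.

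RELA rose in 3 lines by small amounts. In DND41 it went from 37.0, 38.1 and 36.0 CPM to 50.4, 47.0 and 45.9 CPM (log2 0.39 ± 0.115, edgeR adjusted p = 0.0306), and in SUPB15 from 43.6, 39.2 and 35.9 CPM to 59.0, 55.5 and 48.0 CPM (0.43 ± 0.138, 0.0456). In CEM it went from 33.4, 31.1 and 30.4 CPM to 36.8, 37.2 and 37.1 CPM (0.24 ± 0.0821, 0.0387). The groups did not overlap in any of the 3 lines. Each of the 3 calls was lost when any 1 of 5 of its 6 libraries was left out, untreated library A being the exception, with adjusted p between 0.0601 and 0.162, and with no filter on low counts (between 0.0734 and 0.0828).

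In Nalm6, RELA was at 46.9, 38.5 and 39.1 CPM untreated and 35.3, 33.0 and 28.3 CPM treated, without overlap, and did not pass (log2 -0.34 ± 0.14, 0.116), but passed in the model of all 42 libraries (-0.366, 0.0322). The difference of the Nalm6 response from that of the other lines did pass (log2 -0.51, edgeR adjusted p = 0.0168), as did that of SUPB15 in the other direction (0.45, 0.0365).

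NFKB1 changed in CEM alone among the single-line tests, from 59.7, 50.1 and 63.2 CPM to 45.3, 40.2 and 43.6 CPM (log2 -0.41 ± 0.1, edgeR adjusted p = 0.00654), without overlap. Its other line values lay between -0.14 and 0.34 and did not pass. Without untreated library A it passed in DND41 (0.502, 0.0204) and RS411 (0.287, 0.0454). REL passed in none of the 7 lines, with log2 changes from -0.19 in Nalm6 to 0.23 in DND41 and an unadjusted edgeR p above 0.05 in each. Leaving out the libraries that stood apart did not bring a REL call in any line.

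NFKBIA, the inhibitor best known as a quick readout of NF-kappaB, was below its untreated level in 6 of 7 lines and passed in 2. In Nalm6 it went from 76.7, 81.3 and 77.0 CPM to 49.6, 52.6 and 47.1 CPM, a 1.54-fold fall (log2 -0.62 ± 0.103, edgeR adjusted p = 0.00259). In CEM it went from 69.6, 72.5 and 81.8 CPM to 50.4, 55.1 and 54.6 CPM, a 1.39-fold fall (-0.47 ± 0.0841, 0.00096). Both groups of treated libraries lay wholly below the untreated ones.

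The NFKBIA groups of RS411 were also apart, at 107, 97 and 95.7 CPM untreated and 77.1, 79.2 and 81.2 CPM treated, without passing (log2 -0.33 ± 0.106, 0.0781). It passed there without untreated library A (-0.246, 0.0426). DND41 was the line in the other direction, at 42, 45.1 and 40.7 CPM against 53.8, 51.7 and 47.7 CPM, with no overlap (0.29 ± 0.116, 0.0926). Although its own test did not pass, the DND41 response differed from the mean of the other 6 lines by log2 0.59 (edgeR adjusted p = 0.00269), and that of Nalm6 by -0.48 (0.0302).

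NFKBIE, the second inhibitor, rose in CEM from 4.96, 5.04 and 6.87 CPM to 10.8, 10.8 and 11.6 CPM, a 1.98-fold rise (log2 0.99 ± 0.138, edgeR adjusted p = 0.000191). In CEM the 2 inhibitors therefore passed in opposite directions. The deeper treated libraries of CEM stand beside all 7 calls of that line, and the part of depth in them was not tested. SUPB15 had NFKBIE at 5.33, 7.34 and 8.26 CPM against 9.43, 10.6 and 10.8 CPM, without overlap and without passing (0.54 ± 0.186, 0.0615), but it passed without untreated library A (0.43, 0.0229). The REH groups were apart too, at 18.9, 17.8 and 14.2 CPM against 23.5, 19.1 and 21.7 CPM, and did not pass (0.37 ± 0.15, 0.091), but passed when paired by letter (0.38, 0.0184).

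TNFAIP3 had the smallest interaction p of the members, with calls in both directions. In RS411, where it started lowest, it went from 5.86, 5.25 and 4.61 CPM to 13.4, 9.68 and 11.0 CPM, a 2.19-fold rise (log2 1.13 ± 0.192, edgeR adjusted p = 0.00909). In SUPB15 it went from 107, 113 and 122 CPM to 196, 192 and 181 CPM (0.72 ± 0.111, 0.00256). Every treated library of these lines lay above every untreated one.

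CEM started at a level that overlapped that of SUPB15, and there TNFAIP3 went down, from 109, 90.2 and 109 CPM to 45.3, 56.3 and 53.1 CPM, a 1.97-fold fall (log2 -0.98 ± 0.104, edgeR adjusted p = 3.12e-05). REH went from 196, 157 and 174 CPM to 143, 126 and 124 CPM (-0.38 ± 0.119, 0.0365), without overlap. The REH call was lost without untreated library A (adjusted p = 0.0788) or C (0.0542) or treated library B (0.12) or C (0.14) and in the model of all 42 libraries (0.121), and the RS411 call without treated library C (1.16, 0.0511).

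The interaction over the 7 lines had an edgeR adjusted p of 2.64e-06 for TNFAIP3. The response of RS411 differed from the mean of the other lines by log2 1.25 (adjusted p = 0.00064, beside 1.12% of all genes called), SUPB15 by 0.81 (0.0145, beside 3.19%, and 0.0522 once SUPB15 C, REH A and RS411 B were left out) and CEM by -1.21 (0.000408, beside 1.16%). For the Nalm6 differences given above, 4 members passed (RELA, RELB, NFKBIA and BCL3) beside 2.67%, and for DND41 NFKBIA passed beside 6.08%. No member of REH passed beside 2.4%, and none of 697 beside 9.49%. Without the 5 libraries that stood apart, REH passed for NFKB2 (-0.717, 0.0133), RELB (-0.928, 0.0101) and TNFAIP3 (-0.493, 0.0359), and 697 for RELA (-0.424, 0.0155). With limma voom, NFKB2 and BCL3 passed in both lines, lower in REH (0.0449 and 0.0457) and higher in 697 (0.042 and 0.0429). Without those 5 libraries edgeR also called RELB in RS411 (1.202, adjusted p = 0.00186) and SUPB15 (0.792, 0.0367), and NFKB2 in SUPB15 (0.85, 0.00609). It called NFKB1 (-0.573, 0.00462) and NFKBIE (0.926, 7.4e-05) in CEM, and NFKB1 in DND41 (0.412, 0.0397). NFKBIE in RS411 (-0.481, 0.041) and TNFAIP3 in Nalm6 (-0.642, 0.00839) passed as well. The share of all genes that differed from the other lines is not given for these 2 settings. For the interaction it was 34.5% without those 5 libraries and 22.5% with limma voom, against 21.1% as reported. More calls in these settings are thus not a result about the members alone.

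Nalm6 TNFAIP3 showed the effect of its first untreated library, which at 61.1 CPM lay within the treated range of 58.8 to 61.6 CPM while the others were at 86.4 and 88.5 CPM. With that library the difference did not pass (log2 -0.34 ± 0.131, 0.092), and without it, it did (-0.473, 0.00541). Against the precursor lines, the 2 T-cell lines had a lower TNFAIP3 response (log2 -0.71 ± 0.152, edgeR adjusted p = 0.00302) and a higher RELA response (0.32 ± 0.0964, 0.0433), beside 5.68% of all genes. The RELA difference did not pass with RLE size factors (0.0567), without SUPB15 C, REH A and RS411 B (0.0582), or in 25 of the 42 fits that left out 1 library (adjusted p up to 0.0886). Without the 5 libraries that stood apart, RELB (0.645, 0.0188) and NFKB2 (-0.496, 0.0262) passed in this comparison. The TNFAIP3 values of those T-cell lines were themselves unlike, with DND41 at 0.10 ± 0.248 and overlapping groups.

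BIRC3 fell in REH and Nalm6. REH went from 3.21, 1.30 and 2.00 CPM to 0.725, 0.503 and 0.882 CPM, a 3.06-fold fall (log2 -1.62 ± 0.395, edgeR adjusted p = 0.012), and Nalm6 from 1.14, 1.00 and 1.15 CPM to 0.487, 0.289 and 0.420 CPM, a 2.71-fold fall (-1.44 ± 0.302, 0.0081). The groups did not overlap in either line, but the levels are low, and each call was lost without treated library B (REH adjusted p = 0.072, Nalm6 0.0513). In CEM and DND41, the lines with the highest levels, the changes were small, at -0.19 ± 0.0911 and -0.06 ± 0.159, and did not pass. CEM treated libraries (22.3, 21.2 and 19.6 CPM) still lay below its untreated ones.

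All 5 lines in which BIRC3 could be tested had a value below 0, though RS411 was at 0.19 without untreated library A. The mean response over 7 lines, -0.71 ± 0.423, did not pass (adjusted p = 0.208) and included 697 with its 1 read. Without 697 it was -0.493 (edgeR adjusted p = 0.00598).

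BCL3 fell in the lines where it was highest. Nalm6 went from 4.52, 4.94 and 2.76 CPM to 1.24, 0.954 and 1.00 CPM, a 3.75-fold fall (log2 -1.91 ± 0.287, edgeR adjusted p = 0.00173), the largest change of any member in a line. REH went from 9.04, 8.82 and 8.79 CPM to 6, 5.60 and 3.85 CPM (-0.76 ± 0.193, 0.0141), a call that was lost without treated library C (-0.576, 0.0643). The groups were apart in both lines.

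In 3 of the 4 other lines tested BCL3 was higher after treatment without passing, and in RS411 it was lower without passing (-0.43 ± 0.365, 0.477). Treated 697 libraries had 0.825, 0.551 and 0.866 CPM against 0.225, 0.260 and 0.370 CPM (log2 1.33 ± 0.369, edgeR adjusted p = 0.105), without overlap, and in the model of all 42 libraries this value passed (0.0147). SUPB15 went from 1.16, 2.20 and 1.61 CPM to 2.54, 3.09 and 2.37 CPM (0.67 ± 0.261, 0.0887), also without overlap, and CEM was at 0.47 ± 0.264 (0.184). The Nalm6 response differed from the mean of the others by log2 -2.38 (edgeR adjusted p = 0.00181) and the interaction had an adjusted p of 7.76e-06. In DND41 the reads were 0, 0 and 1 untreated and 0, 1 and 2 treated, which allows no comparison.

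Further genes of the pathway were read from 4 lists: 12 other inhibitors, 18 receptors and ligands, 26 kinases and adaptors, and 30 target genes. In the mean response, 8 of 12 other inhibitors passed (6 higher, 2 lower), 4 of 16 tested receptors and ligands (3 higher, 1 lower), 16 of 26 kinases and adaptors (10 higher, 6 lower) and 11 of 22 tested target genes (3 higher, 8 lower). Their median log2 fold changes were 0.19, -0.12, 0.11 and -0.18, beside -0.017 over all genes tested and 37.0% called (17.6% higher, 19.4% lower). By line, target genes were called 2 higher and 7 lower of 14 tested in Nalm6, beside 9.14% and 11.9% of all genes. REH had 0 and 7 of 18 (13.5% and 13.6%) and CEM 2 and 8 of 17 (19.1% and 18.0%). SUPB15 had 1 and 3 of 15 (13.1% and 13.4%). RS411 had 1 and 0 of 18 (7.87% and 5.41%) and DND41 3 and 1 of 13 (15.3% and 12.0%). None of 13 was called in 697 (1.67% and 0.954%).

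Among the target genes, the adhesion molecule ICAM1 passed lower in 4 lines. In Nalm6 it went from 81.5, 107 and 97.3 CPM to 17.7, 16 and 16.2 CPM, a 5.59-fold fall (log2 -2.48 ± 0.12, edgeR adjusted p = 6.3e-06). It also fell in REH (-1.04), DND41 (-1.04) and CEM (-0.70), and its mean response was -0.76 ± 0.073. In 697, where it had under 1 CPM untreated and a mean of 1.09 CPM treated, the value was 0.55 and did not pass.

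CD83, an activation marker, was below its untreated level in 7 of 7 lines and passed in 4, most in REH, from 47.4, 67.7 and 40.8 CPM to 15.6, 18.6 and 14 CPM (log2 -1.65 ± 0.18, edgeR adjusted p = 0.00019). The stress-response gene GADD45B fell in Nalm6 from 28.5, 49.0 and 49.2 CPM to 9.67, 8.38 and 8.28 CPM (-2.23 ± 0.19, 0.00016) and in REH (-0.44). IER3, an early-response gene, fell in Nalm6 (-1.52 ± 0.17, 0.00046). The 2 target genes that passed higher in Nalm6 were CD44 (1.32, 0.037) and, named after its value was seen, the transcription factor IRF1 (0.432, 0.0276). CD44 stayed under 1 CPM in Nalm6, at 0.112, 0.43 and 0.357 CPM untreated and 0.562, 0.78 and 0.933 CPM treated.

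CD69, an early activation antigen, rose in DND41 and SUPB15 and fell in CEM. In DND41 it went from 11.7, 39.6 and 52.0 CPM to 82.6, 225 and 167 CPM, a 4.71-fold rise (log2 2.24 ± 0.48, edgeR adjusted p = 0.0087), with wide spread but no overlap. SUPB15 was at 1.84 ± 0.22 (0.00097) and CEM at -0.50 ± 0.14 (0.013). The adhesion receptor CD44 had a mean response of 1.09 ± 0.33 (0.0087), which did not pass once SUPB15 C, REH A and RS411 B were left out (0.769, 0.0944) or without the line REH (0.278, 0.151). By line it passed higher in Nalm6 and lower in SUPB15 (-1.03 ± 0.16, 0.0025). REH treated library A, 1 of those 3, had 0.989 CPM of CD44 where the untreated REH libraries had 0.

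The other inhibitors also split. NFKBIZ, a nuclear IkappaB protein, was above its untreated level in 7 of 7 lines and passed in 3, most in DND41, from 5.2, 3.74 and 3.47 CPM to 12, 12.4 and 10.4 CPM (log2 1.51 ± 0.21, edgeR adjusted p = 0.0014). NFKBID, another nuclear member, fell in Nalm6 from 11.7, 19.5 and 18.0 CPM to 5.02, 3.55 and 4.81 CPM (-1.84 ± 0.21, 0.00048), and in REH (-0.71) and DND41 (-0.85). The cytoplasmic inhibitor NFKBIB passed higher in 5 lines (mean response 0.54 ± 0.055), and the deubiquitinase OTUD7B in 3 (0.79 ± 0.095). TNIP1, which works with A20, was lower in the mean response (-0.49 ± 0.06) and passed in 4 lines.

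Of the ligands and receptors, TNF, the cytokine that triggers the canonical arm, fell in 4 lines, in CEM from 18.5, 18.1 and 19.2 CPM to 6.35, 8.81 and 7.84 CPM (log2 -1.27 ± 0.12, edgeR adjusted p = 1.7e-05). Its receptor TNFRSF1A was above its untreated level in 7 of 7 lines and passed in 5, in RS411 from 7.41, 8.39 and 9.12 CPM to 17.8, 18.0 and 19.4 CPM (1.16 ± 0.13, 0.0026). LTB, a ligand of the alternative arm, had a mean response of 0.88 ± 0.15 and passed in 3 lines, REH (0.58), CEM (0.31) and DND41 (0.96). Its larger values in 697 (2.09) and RS411 (1.13), at means of 0.14 and 0.345 CPM untreated, did not pass. Nor did Nalm6 (0.85), at 0.419 CPM. TNF and its receptor thus had mean responses of opposite sign, -0.74 ± 0.12 and 0.86 ± 0.085.

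Of the kinases and adaptors, TRAF3 and TRAF5 had negative mean responses (-0.49 ± 0.055 and -0.52 ± 0.08). TRAF3 restrains the alternative arm by keeping its kinase at a low level. The receptor-associated kinases IRAK4 and IRAK1 (0.48 ± 0.048 and 0.43 ± 0.094) and the ubiquitin ligase BIRC2 (cIAP1, 0.40 ± 0.048), the close relative of BIRC3, had positive ones. The kinase IKBKE rose in CEM from a mean of 25.0 to 44.3 CPM (0.83 ± 0.12, edgeR adjusted p = 0.00029) and in SUPB15 (0.49). The RS411 calls of TRAF3 (-0.84) and OTUD7B (1.52) were each lost without treated library B (adjusted p = 0.0606 and 0.0526) or C (0.0796 and 0.068). OTUD7B was low in RS411, at means of 0.483 CPM untreated and 1.39 CPM treated.

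**Figure D4:**
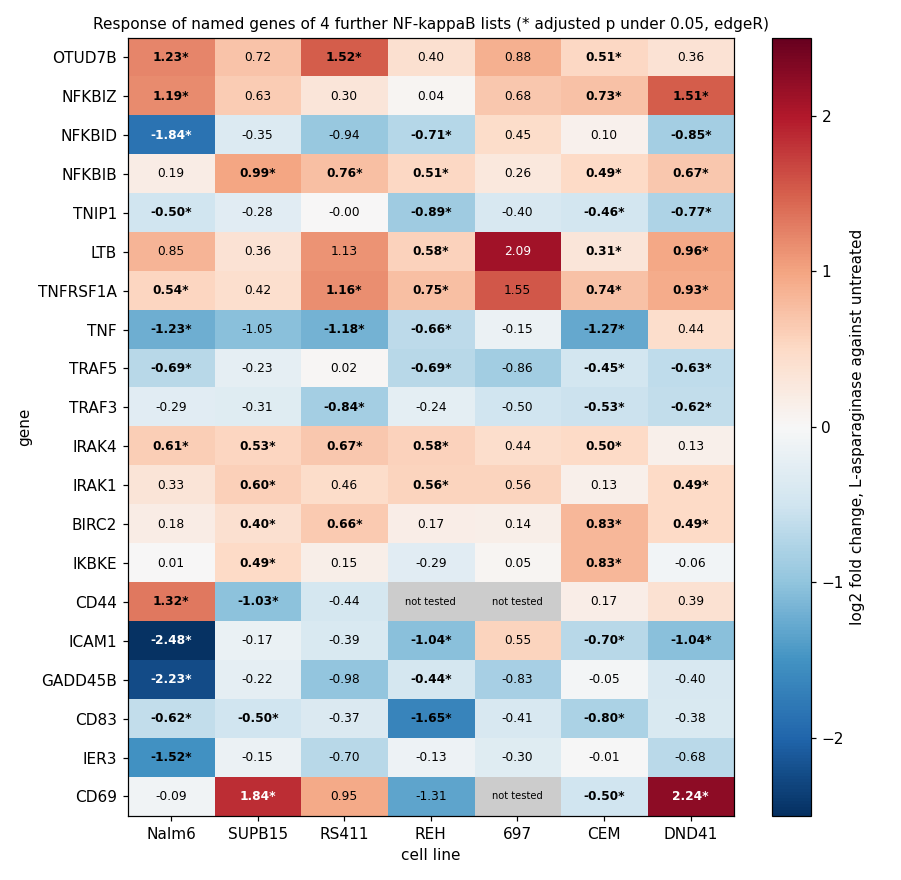
Log2 fold change of treated against untreated libraries for the named genes of the 4 further lists (rows) in each line (columns), with an asterisk at an edgeR adjusted p under 0.05 and grey where not tested. ICAM1 is lowest in Nalm6 at -2.48, TNFRSF1A and NFKBIB are above 0 in 7 of 7 lines, and CD83 is below 0 in 7 of 7.

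For each member, the genes whose level followed it most closely over the 14 group means were sought among 9902 expressed genes by Pearson's r on log2 CPM. The groups share lines, so these values describe the 14 means and carry no test. BCL3 was closest to LAPTM5 (r = 0.96), BIRC3 to CMPK2 (0.95), TNFAIP3 to CPD (0.95), NFKBIA to MYCBP2 (0.94), and NFKB1 to GFPT1 (0.92). RELA was closest to E2F8 (0.92), REL to HAUS8 (0.92), NFKBIE to MFSD1 (0.91), NFKB2 to PNRC1 (0.88) and RELB to ZNF787 and RP11-213G2.3 (0.85 each).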

How the data were processed

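Deposited values were whole-number read counts per gene symbol, not normalized by the authors, in 1 table per line. The submitters' processing notes name the build hg19; aligner, counting tool, annotation and strand use are not given in the sources used, and RELA and TNFAIP3, which overlap antisense genes, may include their reads. Columns were matched to labels by line and treatment; letters A to C stand in no label. The tables were joined on symbol, and 2 duplicated symbols were left out (at most 0.000623% of a library). Fits used edgeR 4.0.16 in R 4.3.3 (TMM, filterByExpr with a minimum count of 10, glmQLFit, glmQLFTest, Benjamini-Hochberg over all genes tested, called under 0.05), per line on 6 libraries, on all 42 with 1 coefficient per group, and on the 21 untreated ones. Log2 CPM used a prior count of 2. Alternatives used DESeq2 1.42.0 and limma 3.58.1. The fits were also run on simulated counts with a fixed spread and independent libraries. Those counts held no shared shift, paired letters or transcripts of other lines, so they do not cover these features of the data. P-values measure the spread between libraries that the design text calls independent experiments. Same-lettered or same-numbered libraries deviated together in every pair (correlation over 0.1) in CEM (lowest 0.23), DND41 (0.37), REH (0.43), RS411 (0.11) and SUPB15 (0.19), not in Nalm6 or 697. The highest correlation between unlike letters was -0.00062 in CEM, 0.32 in DND41, -0.064 in REH, 0.27 in RS411 and 0.14 in SUPB15. In RS411 it exceeded the lowest same-letter value, so the letters are not shown to pair there. The members, lists, tests and alternatives were chosen with earlier results of these data known. All members were named; from each further list, up to 5 genes called in the mean response with the largest change and 2 called in 1 line, with a mean log2 CPM of 1 or more, and the closest of the 2 genes most like each member.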

Additional observations from a re-analysis of the deposited data

Results flagged for a closer look

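Responses that differ between lines, by a test of the difference itself in the edgeR model of all 42 libraries, are collected here with their adjusted p. The interaction of treatment with line passed for TNFAIP3 (2.64e-06), BCL3 (7.76e-06), RELA (0.000931), RELB (0.00122), NFKBIA (0.00235), NFKB2 (0.00815), BIRC3 (0.00915) and NFKB1 (0.0493). Between the 2 T-cell and the 5 precursor lines, the responses of TNFAIP3 (0.00302) and RELA (0.0433, lost in 25 of the 42 fits that left out 1 library) differed. Against the mean of the other 6 lines, Nalm6 differed in BCL3 (0.00181), RELA (0.0168), RELB (0.0196) and NFKBIA (0.0302). SUPB15 differed in TNFAIP3 (0.0145) and RELA (0.0365), RS411 in TNFAIP3 (0.00064), CEM in TNFAIP3 (0.000408) and DND41 in NFKBIA (0.00269). Without the 5 untreated libraries that stood apart, more members passed against the other lines, as given in the results. The share of all genes called in the interaction was then 34.5%, against 21.1% as reported.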

How the results depend on the processing

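Of 3173 recomputed values of 187 member results, 2905 kept their direction and side of the threshold, 87 passed newly, 125 no longer passed and 56, none of them called, changed sign; no called value did. The number of members called in the mean response, 2 as reported, was 4 with limma voom, 4 without the 5 untreated libraries that stood apart, 4 without Nalm6 and 6 without 697. The shares of all genes called in these settings were 42.3%, 39.8%, 35.4% and 39.8%, against 37.0% as reported. For the T-cell against the precursor lines, 2 members were called as reported and 1 with RLE size factors. Without those 5 libraries 4 were called, and 1 without the 3 treated ones named with foreign transcripts. The share of all genes is not given for these settings. SUPB15 had 3 as reported (26.5% of all genes), 5 with DESeq2 (26.5%), 5 without the first set (41.3%) and 1 without the second (14.4%). RS411 had 2 as reported (13.3%) and 4 without the first set (27.1%). In the model of all 42 libraries, 697 had 1 (19.9%) against 0 as reported (2.62%), and CEM 4 (14.1%) against 7 (37.2%). DND41 had 1 as reported (27.2%), 2 with DESeq2 (28.1%) and 0 without a filter on low counts (13.9%). It had 3 with the replicate block (40.6%) and 3 without the first set (34.8%). With the replicate block, which takes the letters as pairs, RELB passed in DND41 (log2 0.93, adjusted p = 0.00304) and in the mean response (0.349, 0.00924). Without the first set the mean response of RELB was 0.13 and did not pass (0.272). The block also called NFKB1 in DND41 (0.356, 0.0245), and RELB and NFKBIE in REH (-0.57, 0.0233 and 0.38, 0.0184). It called RELA in Nalm6 (-0.334, 0.0483), where the letters did not pair, and NFKBIE in SUPB15 (0.553, 0.0455) and in the interaction (0.0342). Leaving out 1 library gave 2 to 3 calls in the mean response, 7 to 9 in the interaction, 1 to 2 between T-cell and precursor lines, 7 to 10 in untreated levels and 5 to 6 between untreated T-cell and precursor lines. By line it gave 6 to 7 in CEM, 0 to 3 in DND41, 3 to 6 in Nalm6, 2 to 4 in REH, 1 to 4 in RS411, 1 to 5 in SUPB15, and 0 in 697 throughout. The share of all genes is not given for most fits without 1 library. In RS411 it was 27.1% without untreated library A and 3.03% without treated library B, against 13.3% as reported. The ranges are therefore not a result about the members alone. Without 1 library, the fits of the model of all 42 libraries kept the genes and the dispersion trend of the full fit. The differences of 1 line from the others were not refitted in this way. BIRC3 and BCL3 under 1 CPM are limited by depth.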
